A study of Homo sapiens with 24 samples.

Results

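Knockdown lines of Huh-7, an established human hepatocellular carcinoma line, were compared after 12 h in 1% oxygen: one carrying a lentiviral short hairpin RNA against HIF1A (shHIF1A) and one carrying a hairpin against NDRG3 (shNDRG3). The comparison took the 2 shHIF1A and 2 shNDRG3 arrays whose titles give this line and time, 4 of the 24 arrays of the series. Every line of the series carries a lentiviral hairpin, the control line one against GFP (shGFP), and all arrays used here are of cells in 1% oxygen except the 2 shGFP arrays in normoxia. The 2 shGFP arrays at 12 h, the 2 in normoxia and the 4 shHIF1A and shNDRG3 arrays at 6 h gave context. The labels name 1 hairpin target per line and no hairpin sequence. No untransduced cells and no knockdown cells in normoxia were analysed here, so an effect of hypoxia in a knockdown line, a difference between the lines before hypoxia and an off-target effect of a hairpin cannot be told apart. In bulk RNA, fewer cells that express a gene and less RNA per cell cannot be told apart either.

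HIF1A is the alpha subunit of HIF-1, a transcription factor that prolyl hydroxylases mark for destruction when oxygen is plentiful and that switches on genes of glucose use, mitochondrial turnover and vessel growth when it is scarce. NDRG3 is a cytoplasmic protein of the NDRG family that is also hydroxylated and degraded in oxygen. It is known to bind lactate, to accumulate late in hypoxia and to support RAF and ERK kinase signalling. Setting one knockdown line against the other asks which transcripts depended more on the one gene than on the other, as far as 1 hairpin each can show.

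Levels below are log2 normalized intensities of a gene's brightest probe, and differences are shHIF1A minus shNDRG3 on the log2 scale, with standard errors after ±. The standard errors and adjusted p-values come from limma, fitted across all 15246 genes and all 24 arrays. With 2 arrays a group the number of arrays limits the precision, and the labels do not say that they were separate cultures, so the p-values reflect nothing more than how far these arrays differ, which may be technical. The array median was 7.03. Where the lower line lay under 1.5 times that median, unsubtracted background shrinks the fold, which is then given as at least its measured value.

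The 4 arrays fell in pairs by line. Replicate arrays correlated across genes at r = 0.9958 in shHIF1A and 0.997 in shNDRG3, and arrays of different lines at 0.9866 to 0.9887. Both knockdown lines stood further from shGFP than from each other, with r of 0.9767 to 0.9795 for shHIF1A and 0.9669 to 0.9694 for shNDRG3. Median deposited intensities were 119.5 and 129.3 on the shHIF1A arrays and 122.9 and 124.4 on the shNDRG3 arrays. The labelled cell type was weakly marked: only 18 of 40 hepatocyte genes were measured and 6 of those exceeded 1.5 times the array median in a knockdown line at 12 h. Albumin (ALB) lay at 7.70 to 8.03 in the 4 arrays and alpha-fetoprotein (AFP) at 6.72 to 6.91, near or under the array median. Keratin 8 (KRT8) lay at 13.00 to 13.46 and vimentin (VIM) at 13.88 to 14.24.

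The hairpins' targets separated the lines. NDRG3 read 10.85 on both shHIF1A arrays, 8.50 and 8.60 on the shNDRG3 arrays, and 10.80 and 10.60 on the shGFP arrays. The shHIF1A line thus sat at the control level and the shNDRG3 line apart from both, 4.94-fold lower than shHIF1A (2.31 ± 0.12, adjusted p = 3.5e-12). A further NDRG3 probe gave 2.02 (adjusted p = 2.79e-09 over all kept probes). HIF1A read 9.38 and 9.04 in shHIF1A, 10.30 and 10.26 in shNDRG3, and 10.67 and 10.58 in shGFP. The shHIF1A arrays were the lowest, and HIF1A was 2.10-fold lower there than in shNDRG3 (-1.07 ± 0.18, adjusted p = 0.000163). The 2 dimmer probes of HIF1A, at -0.76 and -0.30, missed the threshold when adjusted over all kept probes (adjusted p = 0.101 and 0.645), so the HIF1A knockdown rests on the brightest probe.

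Between the lines 1523 of 15246 genes passed the threshold (9.99%), 831 higher in shHIF1A (5.45%) and 692 lower (4.54%). The 195 genes that differed 2-fold or more (1.28%) were mostly higher in shHIF1A, 150 against 45 (0.984% and 0.295%). The split depended on scaling: 54.6% of calls were higher in shHIF1A after quantile normalization, 79.7% with the intensities as deposited (827 and 210) and 77.5% with median-centred arrays (840 and 244). The count also moved when an array was left out, which leaves a line with 1 array assumed to vary like the other groups. It was 853 without shHIF1A replicate 1, 1010 without shHIF1A replicate 2, 813 without shNDRG3 replicate 1 and 938 without shNDRG3 replicate 2.

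Many genes of glucose breakdown that differed between the lines were lower in shHIF1A. In the glycolysis and glucose uptake list 8 of 23 measured genes were lower and 2 higher, with a median difference of -0.23 against -0.01 over all genes. Of the list 43.5% passed the threshold, against 9.99% of all genes. PDK3, a kinase that shuts pyruvate out of the mitochondrial citric acid cycle, read 10.01 and 9.99 in shHIF1A and 11.68 and 11.84 in shNDRG3 (-1.76 ± 0.11, adjusted p = 5.1e-11, 3.39-fold lower). The shGFP arrays, at 10.36 and 10.46, lay nearer to shHIF1A, so the line that stood out for PDK3 was shNDRG3, 1.35 above shGFP. Aldolase C (ALDOC), which splits fructose bisphosphate, read 11.92 and 11.89 in shHIF1A, 13.43 and 13.54 in shNDRG3 and 13.26 and 13.17 in shGFP (-1.58 ± 0.11, adjusted p = 4.4e-10, 2.99-fold lower). Here shNDRG3 sat near the control and shHIF1A below both. PFKFB4, which sets the level of the glycolytic activator fructose 2,6-bisphosphate, read 12.10 and 12.04 against 13.07 and 13.31 (-1.12 ± 0.12, adjusted p = 3.54e-07). Enolase 2 (ENO2, -0.91), the hexokinase HK1 (-0.89), the mutase PGAM1 (-0.68), the isomerase GPI (-0.51) and the kinase PGK1 (-0.38) completed the lower members. PGK1 lost its call in 6 of 15 alternative settings.

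The 2 higher members were SLC2A3 and HK2. The glucose transporter SLC2A3 read 15.06 and 15.10 in shHIF1A and 14.41 and 14.49 in shNDRG3 (0.63 ± 0.14, adjusted p = 0.0032), with shGFP at 15.08 and 14.94. Hexokinase 2 (HK2), which traps glucose in the cell, read 13.68 and 13.72 against 13.01 and 13.20 (0.60 ± 0.19, adjusted p = 0.0438). For both, the shHIF1A arrays lay above the shNDRG3 arrays without overlap. HK1 was lower, as given above, and the transporter SLC2A1 (-0.27) and lactate dehydrogenase A (LDHA, 0.07) missed the threshold. With intensities as deposited, with median-centred arrays and with background correction the list had 7 lower and 1 higher.

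Among 39 measured further HIF target genes 13 were lower in shHIF1A and 2 higher, with a median of -0.20 and 38.5% past the threshold, against 9.99% of all genes. With intensities as deposited the counts were 8 and 3, and with median-centred arrays 9 and 3. The lipid droplet protein HILPDA, which blocks triglyceride breakdown, read 11.29 and 11.09 in shHIF1A, 12.72 and 12.69 in shNDRG3 and 13.26 and 13.13 in shGFP (-1.51 ± 0.14, adjusted p = 4.57e-08, 2.86-fold lower). The lines stood in the order shHIF1A, shNDRG3, shGFP, without overlap. BNIP3, a receptor that feeds mitochondria into autophagy, read 13.62 and 13.68 in shHIF1A, 14.70 and 14.89 in shNDRG3 and 14.74 and 14.69 in shGFP (-1.15 ± 0.11, adjusted p = 5.2e-08). Its relative BNIP3L was lower by less (-0.57). The glycogen regulator PPP1R3C (-1.16 ± 0.12), the mitochondrial protein FAM162A (-1.12), SPAG4 (adjusted p = 1.02e-05) and the collagen prolyl hydroxylase P4HA2 (-0.98 ± 0.13) were lower as well. EGLN1, the main hydroxylase that marks HIF alpha subunits, read 9.24 and 9.26 in shHIF1A and 10.13 and 9.98 in shNDRG3 (-0.81 ± 0.17, adjusted p = 0.00183).

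Not every gene known as a HIF target separated the lines. NDRG1 lay at 14.80 to 14.97 in the 4 arrays (-0.03 ± 0.13, adjusted p = 0.946), and the angiogenic factor VEGFA at 9.96 and 10.00 in shHIF1A against 9.68 and 9.78 in shNDRG3 (0.25 ± 0.19, adjusted p = 0.532). Adrenomedullin (ADM, 0.04), EGLN3 (0.12), ERO1A (-0.07), P4HA1 (0.02) and the histone demethylase KDM3A (-0.15) missed the threshold too. The 2 higher members were carbonic anhydrase 12 (CA12, 0.70 ± 0.15, adjusted p = 0.003), which buffers acid outside the cell, and the collagen cross-linking enzyme LOX (0.64 ± 0.17, adjusted p = 0.0153). Further factors of the oxygen pathway were higher in shHIF1A too. EPAS1, the alpha subunit of HIF-2, read 12.65 and 12.93 in shHIF1A and 11.56 on both shNDRG3 arrays (1.23 ± 0.16, adjusted p = 5.68e-06). The partner subunit ARNT2 (1.06 ± 0.13) and the HIF antagonist CITED2 (0.78) were also higher in shHIF1A. In shGFP EPAS1 read 12.83 and 12.94, at the level of the shHIF1A line. EGLN1, HIF1A, EPAS1, ARNT2, CITED2 and NDRG3 were the 6 of 18 oxygen sensing and NDRG family genes past the threshold (33.3%, against 9.99% of all genes).

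**Figure D1:**
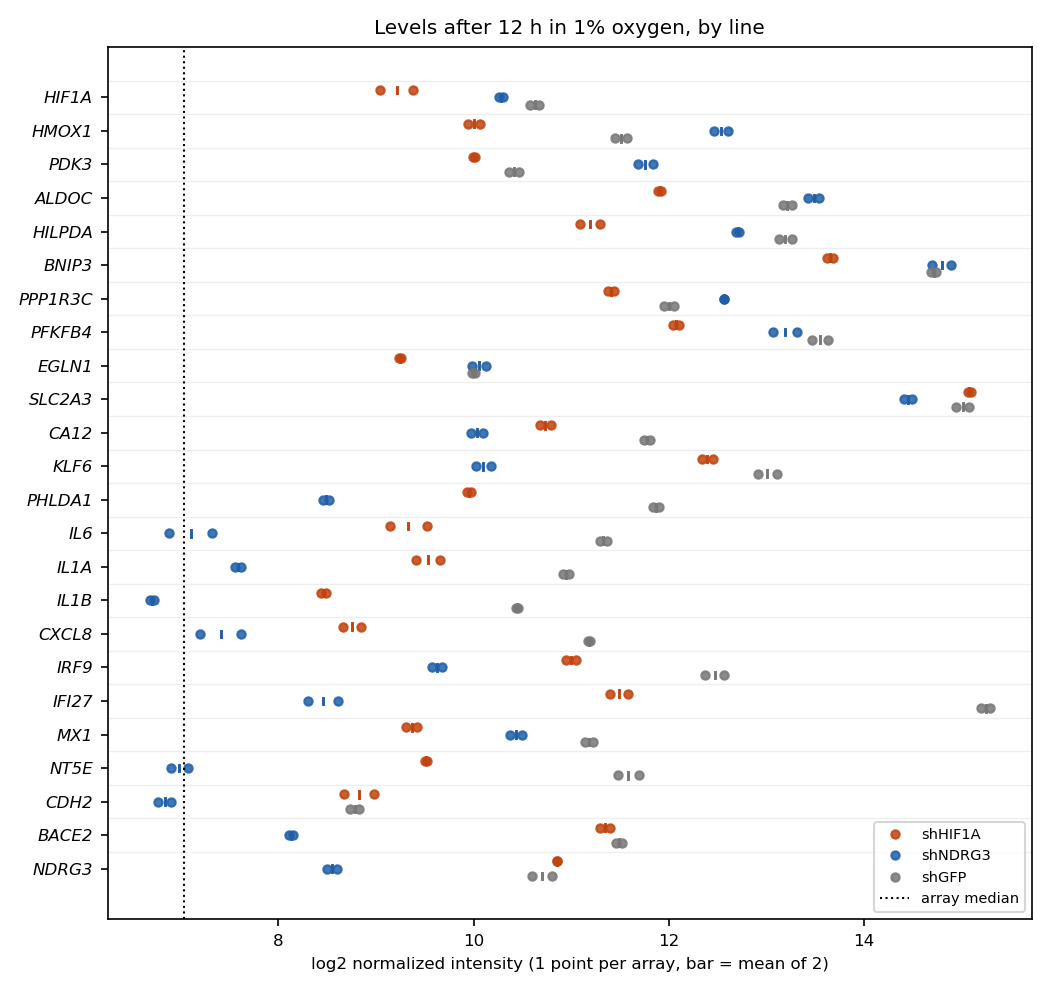
Log2 normalized intensity (horizontal axis) of 24 genes after 12 h in 1% oxygen, 1 point per array and a bar at the mean of 2, in the shHIF1A, shNDRG3 and shGFP lines, with the array median of 7.03 as a dotted line. HMOX1, PDK3 and ALDOC are higher in shNDRG3 than in shHIF1A, KLF6, IL6, IFI27 and BACE2 are higher in shHIF1A, and IFI27 at 15.20 and 15.29 in shGFP is far above both knockdown lines.

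The promoters of BNIP3 and ALDOC, both lower in shHIF1A, show the letters to which HIF dimers are known to bind. The stretches below run from 250 bases before to 50 after the start site, from RefSeq on GRCh38.p14, both on the minus strand (BNIP3 at chr10:131981874-131982173, ALDOC at chr17:28576846-28577145). Capitals mark the hypoxia response core, ACGTG or GCGTG on either strand, with overlapping matches merged into 1 run.
BNIP3: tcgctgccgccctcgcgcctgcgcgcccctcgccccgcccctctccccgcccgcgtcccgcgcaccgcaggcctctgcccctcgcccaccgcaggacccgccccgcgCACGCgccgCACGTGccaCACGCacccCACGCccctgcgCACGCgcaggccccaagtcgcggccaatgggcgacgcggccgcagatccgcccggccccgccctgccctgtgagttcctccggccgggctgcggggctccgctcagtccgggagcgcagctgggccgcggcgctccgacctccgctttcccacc
ALDOC: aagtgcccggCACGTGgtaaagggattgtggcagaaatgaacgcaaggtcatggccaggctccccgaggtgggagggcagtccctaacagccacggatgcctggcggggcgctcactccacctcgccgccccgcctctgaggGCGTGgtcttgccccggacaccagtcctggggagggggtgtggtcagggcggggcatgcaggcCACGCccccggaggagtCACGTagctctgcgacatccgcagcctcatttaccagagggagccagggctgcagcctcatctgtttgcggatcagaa
BNIP3 held 5 such runs, from 143 to 104 bases before the start, and ALDOC held 4. The core is short and common: 59.2% of the 11849 tested genes with a listed promoter held it. In the glycolysis and HIF target lists it stood in 14 of 18 promoters of genes lower in shHIF1A (77.8%) and in 29 of 36 promoters of the other members (80.6%), shares that lie close together.

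The response of the control line gave a wider set of genes, chosen on the means of arrays other than the 4 compared. The tests share 1 estimate of the spread per gene, so the share of these genes that passed is not independent of their choice. In shGFP cells 301 genes were raised 2-fold or more by 12 h of hypoxia, and 144 of them (47.8%, against 9.99% of all genes) passed between the knockdown lines. They went both ways, 85 lower and 59 higher in shHIF1A, around a median of -0.07 (quartiles -0.50 and 0.27). With intensities as deposited 48 were lower and 56 higher (median 0.04), and with median-centred arrays 51 and 59 (median 0.03), so the balance of directions turned with the scaling. Of the 156 genes lowered 2-fold or more, 14 were lower in shHIF1A (8.97%, against 4.54% of all genes) and 12 higher (7.69%, against 5.45%). Their balance turned with the scaling as well, with 4 lower and 12 higher (median 0.07) both as deposited and with median-centred arrays. The raised and lowered sets themselves hold 1.97% and 1.02% of all genes. Most extreme among the raised genes were HMOX1, PDK3, RCOR2 and ALDOC on the lower side. RCOR2, a corepressor subunit, read 9.29 and 9.25 in shHIF1A and 10.92 and 11.04 in shNDRG3 (-1.71 ± 0.12, adjusted p = 4.29e-10). On the higher side stood C17orf67 (3.50 ± 0.11, 11.3-fold), the calcium-binding S100A9 (2.57 ± 0.14, at least 5.94-fold), the cytokine IL1A (1.94 ± 0.19) and the plasminogen activator PLAT (1.84 ± 0.13, 3.58-fold).

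**Figure D2:**
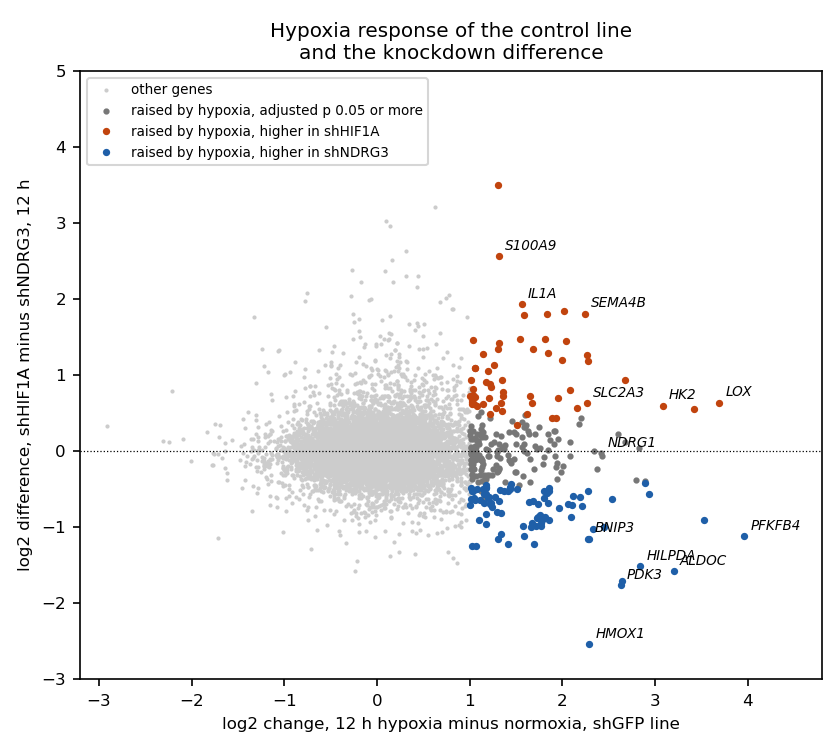
Each point is a gene, with its log2 change in shGFP cells after 12 h of hypoxia on the horizontal axis and its log2 difference shHIF1A minus shNDRG3 at 12 h on the vertical axis. The axes share no array. The 301 genes raised 2-fold or more spread to both sides of 0, from HMOX1 at -2.54 to C17orf67 at 3.50, and NDRG1 lies at -0.03.

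Heme oxygenase 1 (HMOX1), which breaks down heme and is a target of NRF2 as well as of hypoxia, had the lowest difference of all genes. It read 9.94 and 10.07 in shHIF1A, 12.46 and 12.61 in shNDRG3, and 11.45 and 11.57 in shGFP. The control lay between the knockdown lines, with shHIF1A differing from it by -1.51 and shNDRG3 by 1.03, and shHIF1A was 5.80-fold below shNDRG3 (-2.54 ± 0.13, adjusted p = 6.28e-12). Both subunits of the enzyme that starts glutathione synthesis were lower too. The catalytic subunit GCLC read 9.30 and 9.41 against 10.56 and 10.55 (-1.19 ± 0.11, adjusted p = 7.5e-08), and the modifier subunit GCLM 10.05 and 10.37 against 11.12 and 11.37 (-1.04 ± 0.18, adjusted p = 0.00026). A further GCLC probe, near the array median, gave -0.09 (adjusted p = 0.889 over all kept probes). Thioredoxin reductase (TXNRD1, -0.73) and the aldo-keto reductase AKR1B10 (-0.42) were the other lower members of the NRF2 target list. In it 5 of 20 measured genes were lower and 1, the transporter ABCC3 (0.77 ± 0.11), was higher (30% past the threshold, against 9.99% of all genes). NQO1 (0.17) and SRXN1 (0.04), also NRF2 targets, missed the threshold. Among 7 metallothioneins, which bind zinc and copper, MT1E (-0.72 ± 0.15), MT1F (-0.71 ± 0.16) and MT1H (-0.63 ± 0.13) were lower (42.9%, against 4.54% of all genes). The list median was 0.03, so the family was not lower as a whole. At 6 h 2 members were higher and 0 lower, and 0 passed at both times. MT1X (0.04) and MT2A (0.11) missed the threshold. By its means MT1H lay under 1.5 times the array median in both lines. A further MT1E probe gave -0.22 (adjusted p = 0.33 over all kept probes), and MT1F lost its call without shNDRG3 replicate 1 (adjusted p = 0.117).

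The remaining genes at the lower end have unlike roles. ACTL8, an actin-like protein, read 7.83 and 8.07 in shHIF1A and 9.61 and 9.44 in shNDRG3 (-1.58 ± 0.12), with shGFP at 7.62 and 7.50. Endothelin 2 (EDN2), a vasoconstrictor peptide, read 8.82 and 8.78 against 10.15 and 10.10 (-1.33 ± 0.24, adjusted p = 0.000427), and 7.23 and 7.21 in shGFP. For these genes both knockdown lines lay above the control, shNDRG3 by more. The growth factor NRG4 (-1.47 ± 0.18), the actin-binding tropomyosin TPM1 (-1.44 ± 0.13), the microtubule protein MAP6D1 (-1.40 ± 0.13), GKN2 (-1.38 ± 0.11) and the noncoding RNA HOXA11-AS (-1.35 ± 0.13) followed. Whether the array's probe for HOXA11-AS tells it from the gene on the other strand is not given in the sources used here.

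Where inflammatory and growth signalling genes differed, most were higher in the shHIF1A line. In the NF-kappaB target list 11 of 25 measured genes were higher and 0 lower (median 0.40, against 5.45% and 4.54% of all genes). At an unadjusted p under 0.05 the limma fit had 17 higher and 1 lower, against 1631 higher and 1551 lower of all 15246 genes. Interleukin 6 (IL6), a cytokine of the acute phase, read 9.14 and 9.52 in shHIF1A, 6.88 and 7.32 in shNDRG3, and 11.29 and 11.37 in shGFP (2.23 ± 0.14, adjusted p = 1.42e-10, at least 4.68-fold). Interleukin 1 alpha (IL1A) read 9.41 and 9.66 against 7.62 and 7.55 (1.94 ± 0.19, adjusted p = 1.64e-07, at least 3.85-fold), with shGFP at 10.98 and 10.92. Interleukin 1 beta (IL1B) read 8.44 and 8.49 against 6.72 and 6.68 (1.77 ± 0.14, at least 3.41-fold), with shGFP at 10.45 and 10.43. All these cytokines stood in the order shNDRG3, shHIF1A, shGFP, without overlap, and the shNDRG3 arrays lay near the array median. The chemokine CXCL8 (1.34 ± 0.21, at least 2.54-fold) and the mitochondrial dismutase SOD2 (13.58 and 13.70 against 12.66 and 12.61; 1.00 ± 0.14, adjusted p = 2.04e-05) were also higher. The inhibitor NFKBIA (0.40), the subunit NFKB1 (0.22) and the cytokine TNF (-0.14) missed the threshold.

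Of 26 angiogenic and inflammatory secreted factors 11 were higher in shHIF1A and 2 lower (median 0.29), so 50% passed the threshold, against 9.99% of all genes. Besides the cytokines above, which this list shares, fibroblast growth factor 2 (FGF2) read 9.89 and 9.99 in shHIF1A and 8.81 and 8.97 in shNDRG3 (1.05 ± 0.11, adjusted p = 2.27e-07), while another FGF2 probe near the array median gave 0.39 (adjusted p = 0.115 over all kept probes). The lymphatic growth factor VEGFC (1.07), the EGF receptor ligand TGFA (1.01) and stanniocalcin 1 (STC1, 0.94) were higher. Angiogenin (ANG, -0.88) and endothelin 1 (EDN1, -0.47) were the 2 lower members. VEGFA and VEGFB (-0.04) missed the threshold.

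The ERK output list held 11 of 27 genes higher in shHIF1A and 1 lower (median 0.44). Of the list 44.4% passed the threshold, against 9.99% of all genes. Relative to shGFP the list median was -1.27 in shHIF1A and -1.36 in shNDRG3, so by median both knockdown lines lay below the control. KLF6, an immediate early zinc finger factor, read 12.45 and 12.34 in shHIF1A, 10.02 and 10.18 in shNDRG3 and 12.91 and 13.11 in shGFP (2.30 ± 0.13, adjusted p = 1.11e-11, 4.92-fold). PHLDA1 read 9.93 and 9.97 against 8.46 and 8.52 (1.46 ± 0.17, adjusted p = 1.91e-06), but its further probe gave 0.34 (adjusted p = 0.143 over all kept probes). The phosphatases that switch ERK off, DUSP5 (0.98) and DUSP6 (0.70), and the feedback inhibitors SPRY2 (0.95 ± 0.13), SPRED1 (0.51) and SPRED2 (0.65) were higher. Sprouty 1 (SPRY1), a relative of SPRY2 that hypoxia raised in shGFP by 2.33, went the other way and read 8.60 and 8.61 against 9.59 and 9.68 (-1.03 ± 0.13, adjusted p = 6.76e-06). EGR1 (-0.03), FOS (0.09), FOSL1 (-0.21), MYC (0.31) and cyclin D1 (CCND1, -0.34) missed the threshold.

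Interferon-stimulated genes, which antiviral signalling through the STAT and IRF9 complex switches on, were higher in shHIF1A in 19 of 39 measured members and lower in 1, with a median of 0.38 (51.3% past the threshold, against 9.99% of all genes). IRF9 itself, the DNA-binding part of that complex, read 10.95 and 11.05 in shHIF1A, 9.68 and 9.57 in shNDRG3 and 12.37 and 12.57 in shGFP (1.37 ± 0.14, adjusted p = 1.29e-07, 2.59-fold). IFI27, a small mitochondrial protein, read 11.40 and 11.58 in shHIF1A, 8.61 and 8.30 in shNDRG3 and 15.20 and 15.29 in shGFP (3.03 ± 0.48, adjusted p = 0.000101, 8.18-fold). Both knockdown lines lay far below the control, with differences from it of -6.79 in shNDRG3 and -3.76 in shHIF1A. IFI44L showed the same order, at 8.13 and 8.50, 7.13 and 7.22, and 12.46 and 12.49 (1.14 ± 0.14, at least 2.21-fold), and its further probe gave 0.22 (adjusted p = 0.507 over all kept probes). IFI6 (1.56), the ubiquitin-like ISG15 (1.39), IFIT2 (1.32), IFIT3 (1.18) and OASL (1.14) were higher as well. RSAD2 (0.14), MX2 (0.14) and USP18 (-0.21) lay with their lower line under 1.5 times the array median and missed the threshold. Members above that limit in both lines missed it too. Among them were BST2 (-0.42), XAF1 (-0.01), OAS1 (0.10), OAS3 (0.14), HERC6 (0.22) and IFIT1 (0.94, adjusted p = 0.0557).

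MX1, an antiviral GTPase, was the 1 member that went the other way. It read 9.31 and 9.42 in shHIF1A, 10.50 and 10.37 in shNDRG3 and 11.14 and 11.22 in shGFP (-1.07 ± 0.11, adjusted p = 4.89e-07), so that shHIF1A, not shNDRG3, was the lowest line. Of 19 antigen processing genes, many of which interferon also raises, 1 (5.26%, against 5.45% of all genes) was higher, the peptide transporter TAP1 (0.45 ± 0.14, adjusted p = 0.0329), and 0 were lower, with 2 and 1 at an unadjusted p under 0.05 in the limma fit. Over all 15246 genes the unadjusted counts were 1631 higher and 1551 lower, so this list lay near the background. TAP1 lost its call in 4 of 15 alternative settings.

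The promoters of IFI27 and MX1 are shown because these genes of 1 list differed in opposite directions. Both are on the plus strand, IFI27 at chr14:94110486-94110785 and MX1 at chr21:41420308-41420607, from RefSeq on GRCh38.p14. Capitals mark the interferon response element, searched on either strand as GAAA, any 2 bases and GAAA.
IFI27: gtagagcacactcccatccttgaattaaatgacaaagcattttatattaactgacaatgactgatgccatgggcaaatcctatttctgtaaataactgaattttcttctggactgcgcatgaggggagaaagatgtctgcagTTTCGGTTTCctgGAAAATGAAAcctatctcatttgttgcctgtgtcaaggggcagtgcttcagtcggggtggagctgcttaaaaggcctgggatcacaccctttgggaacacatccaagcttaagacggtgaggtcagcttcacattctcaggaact
MX1: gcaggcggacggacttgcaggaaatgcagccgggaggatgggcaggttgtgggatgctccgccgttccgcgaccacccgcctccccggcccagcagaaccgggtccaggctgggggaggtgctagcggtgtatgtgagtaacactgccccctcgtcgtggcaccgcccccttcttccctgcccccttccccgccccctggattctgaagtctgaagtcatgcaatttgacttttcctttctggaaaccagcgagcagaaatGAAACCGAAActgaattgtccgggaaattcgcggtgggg
IFI27 held 2 matches, 108 and 95 bases before the start site, and MX1 held 1, beginning 11 bases after it. The element was rare among all promoters (3% of 11849) and stood in 21 of 31 promoters of the list (67.7%), including 10 of 14 of the members higher in shHIF1A (71.4%).

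**Figure D3:**
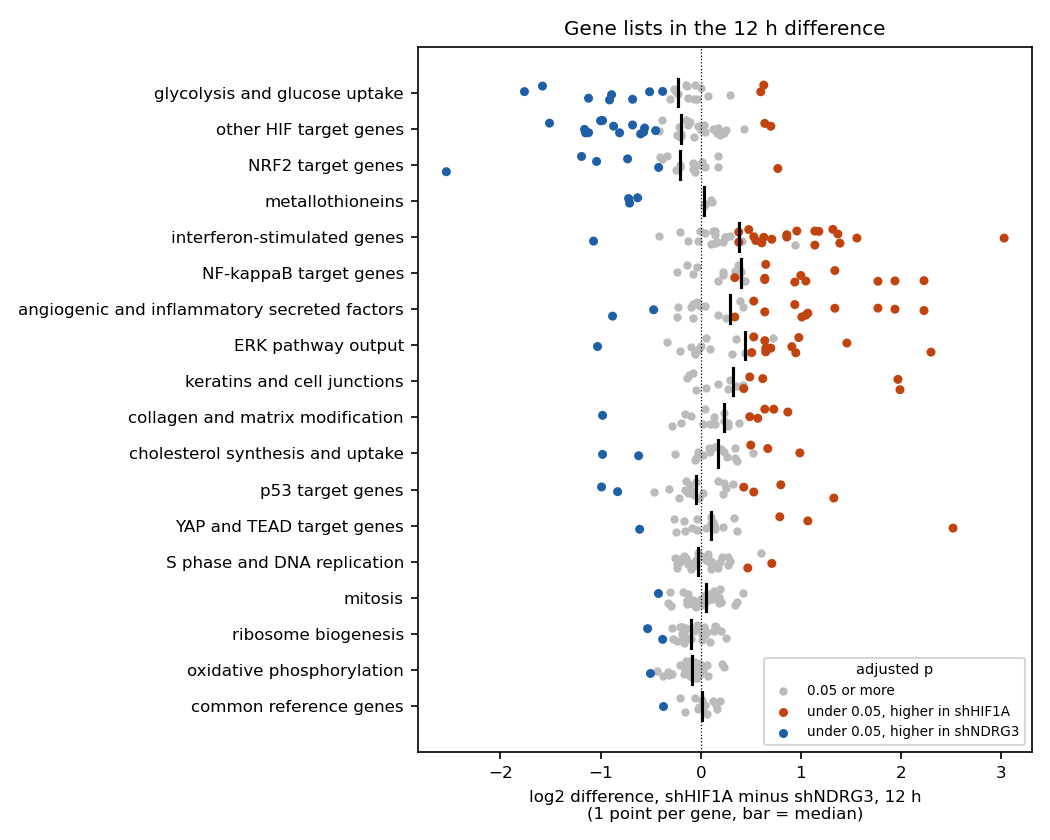
Each point is a measured gene of a list, placed by its log2 difference shHIF1A minus shNDRG3 at 12 h, coloured where the adjusted p was under 0.05, with a bar at the list median; vertical scatter is only for legibility. Glycolysis, further HIF targets and NRF2 targets have medians of -0.23, -0.20 and -0.21, and interferon-stimulated, NF-kappaB and ERK output genes have medians of 0.38, 0.40 and 0.44, while S phase, mitosis and oxidative phosphorylation genes lie around 0.

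Among the genes with the highest differences, BACE2, C17orf67, TGM2 and VTN were low in the shNDRG3 line and closer together in the other lines. BACE2, a membrane aspartyl protease, read 11.29 and 11.40 in shHIF1A, 8.15 and 8.11 in shNDRG3 and 11.46 and 11.52 in shGFP (3.22 ± 0.10, adjusted p = 3.81e-16, 9.30-fold), and its further probe gave 3.17 (adjusted p = 5.92e-12 over all kept probes). C17orf67, whose function is not well described, read 11.22 and 11.23, 7.72 and 7.73, and 11.68 and 11.72 (3.50 ± 0.11, 11.3-fold). Transglutaminase 2 (TGM2), which cross-links proteins, read 12.36 and 12.15, 9.86 and 9.87, and 12.39 and 12.59 (2.39 ± 0.12, adjusted p = 2.8e-12, 5.25-fold). The dimmer TGM2 probes, at 0.22 and 0.18, missed the threshold (adjusted p = 0.664 and 0.653), 1 of them at 1.64 above the array median, so the TGM2 difference was seen by the brightest probe alone. Vitronectin (VTN), an adhesive protein of plasma, read 9.26 and 8.99, 6.89 and 6.88, and 9.35 and 9.49 (2.23 ± 0.13, at least 4.70-fold).

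A second kind of gene was higher in shHIF1A than in either of the other lines. The protease inhibitor SERPINB3 read 9.88 and 10.15 in shHIF1A, 7.05 and 7.06 in shNDRG3 and 8.54 and 8.36 in shGFP (2.96 ± 0.18, adjusted p = 5.74e-11, at least 7.78-fold). The serotonin receptor subunit HTR3A read 9.74 and 9.78, 7.36 and 7.41, and 8.45 and 8.26 (2.37 ± 0.19, at least 5.17-fold). For both genes shGFP lay between the knockdown lines without overlap. A further kind was lower in both knockdown lines than in shGFP and lowest in shNDRG3. The hormone subunit CGA read 11.76 and 12.17, 9.44 and 9.21, and 13.18 and 13.02 (2.64 ± 0.16, 6.24-fold). NT5E, the enzyme that makes extracellular adenosine, read 9.50 and 9.52, 6.90 and 7.07, and 11.69 and 11.48 (2.52 ± 0.26, adjusted p = 2.73e-07, at least 5.74-fold). S100A9 and the small GTPase RASD1 (2.06 ± 0.13, at least 4.18-fold) had the same order.

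Genes of cell contact were higher in shHIF1A in 5 of 16 keratin and junction genes and lower in 0, with 10 and 0 at an unadjusted p under 0.05 in the limma fit (median 0.32). Of the list 31.2% passed the threshold, against 9.99% of all genes. The unadjusted counts over all 15246 genes were 1631 higher and 1551 lower. Claudin 1 (CLDN1), a tight junction protein, read 10.01 and 10.09 in shHIF1A, 7.97 and 8.20 in shNDRG3 and 11.63 and 11.58 in shGFP (1.97 ± 0.18, adjusted p = 5.79e-08, 3.91-fold). N-cadherin (CDH2) read 8.98 and 8.67, 6.90 and 6.77, and 8.73 and 8.83 (1.99 ± 0.12, adjusted p = 7.1e-11, at least 3.98-fold), so its shHIF1A arrays overlapped the control range and only shNDRG3 stood apart. P-cadherin (CDH3, 0.62 ± 0.11), KRT15 (0.49 ± 0.14) and KRT80 (0.43) were the other members, and keratin 19 (KRT19, -0.08) missed the threshold. CDH3 lay under 1.5 times the array median in both lines, and KRT15 lost its call when any 1 of the 4 arrays was left out. In the collagen and matrix list 5 of 21 were higher and 1, P4HA2, lower (median 0.23), with 28.6% past the threshold. The metalloprotease inhibitor TIMP1 read 14.94 and 14.87 against 14.05 and 14.01 (0.87 ± 0.10, adjusted p = 2.07e-06), the laminin chain LAMB3 12.22 on both arrays against 11.46 and 11.52 (0.73 ± 0.15), and the integrin ITGA5 13.50 and 13.34 against 12.93 and 12.91 (0.49 ± 0.11). A further LAMB3 probe, near the array median, gave 0.01 and missed the threshold.

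Stress and lipid lists split within themselves. Their counts stand beside 5.45% of all genes higher and 4.54% lower. Of 23 p53 target genes 4 were higher and 2 lower (median -0.05). The cell cycle inhibitor CDKN1A read 13.10 and 13.17 in shHIF1A and 12.31 and 12.35 in shNDRG3 (0.80 ± 0.15, adjusted p = 0.000767), and the death gene PMAIP1 10.24 and 10.03 against 8.86 and 8.74 (1.33 ± 0.20), while the sestrin SESN1 was lower (-0.99 ± 0.14) with TIGAR (-0.83). The further probes of CDKN1A (0.29) and PMAIP1 (0.25), both near the array median, missed the threshold. In the cholesterol list 3 of 20 were higher and 2 lower (median 0.17): MSMO1 (0.99 ± 0.15) and SQLE (0.67 ± 0.12), enzymes of late sterol synthesis, with LSS (0.50 ± 0.11), against INSIG1 (-0.98 ± 0.14), which holds back sterol synthesis, and HMGCS1 (-0.62). The LSS call was not shared by its further probes (0.14 and -0.35) and was lost with the mean of all kept probes (0.10, adjusted p = 0.62). Further MSMO1 probes, at 0.60 and 0.21, missed the threshold. Of 20 YAP and TEAD target genes 3 were higher, NT5E, tissue factor (F3, 1.07 ± 0.24) and CCN1 (0.79), and 1 lower (AJUBA, -0.61), while CCN2 (0.14) and ANKRD1 (0.33) missed the threshold. F3 lost its call without shNDRG3 replicate 1 (adjusted p = 0.0655).

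Growth and housekeeping lists had few calls, at or under the 9.99% of all genes except for ATF4 targets at 10.8% and fatty acid synthesis at 11.1%. In the S phase list 2 of 38 genes were higher, TYMS (0.47 ± 0.11) and RRM2 (0.71 ± 0.18), which serve nucleotide supply. In the mitosis list 1 of 32 was lower, PTTG1 (-0.43 ± 0.13). Ribosome biogenesis had 2 of 31 lower, PPAN (-0.53 ± 0.14) and PES1 (-0.38 ± 0.11), and oxidative phosphorylation 1 of 37, NDUFB8 (-0.51 ± 0.10). Among ATF4 targets 3 of 37 were higher, with CEBPB (0.57 ± 0.13), MTHFD2 (0.48) and NUPR1 (0.49), and 1 lower, the lipoprotein receptor VLDLR (-0.98 ± 0.11, at least 1.97-fold). The ER folding list had 1 of 25 higher, XBP1 (0.46 ± 0.14), and fatty acid synthesis 2 of 18 higher, SCD (0.42 ± 0.11) and ACSS2 (0.38 ± 0.11). Of 14 reference genes PGK1 alone passed, and ACTB (-0.02) and GAPDH (-0.06) lay near 0. TYMS, RRM2, PTTG1, PPAN, PES1, CEBPB, XBP1, SCD and ACSS2 each lost the call in 2 to 6 of 15 alternative settings.

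Markers of other cell types were mostly dim, and their part in the differences above was not tested. Of 9 measured fibroblast markers 4 exceeded 1.5 times the array median, of 7 endothelial markers 3 and of 9 blood markers 2. Their mean log2 levels were 7.59 to 7.64 (fibroblast), 7.56 to 7.61 (endothelial) and 7.58 to 7.62 (blood) in shHIF1A, and 7.54 to 7.60, 7.38 to 7.44 and 7.58 to 7.65 in shNDRG3. Among fibroblast markers ACTA2 was higher (0.66 ± 0.11) and TAGLN lower (-0.93 ± 0.15), among endothelial markers PECAM1 higher (0.89 ± 0.12) and ESAM lower (-0.45 ± 0.13), and among blood markers CD68 higher (0.42 ± 0.12). ESAM and CD68 each lost the call in 6 of 15 alternative settings, and further CD68 probes gave 0.26 and 0.33 and missed the threshold. Further TAGLN probes near the array median gave 0.10 and -0.12 and missed the threshold. In the hepatocyte list 3 of 18 measured genes were higher, VTN, complement C3 (0.81) and the fibrinogen chain FGG (0.72 ± 0.11), and 1 lower, CEBPA (-0.87). That put 22.2% of the list past the threshold, against 9.99% of all genes. FGG lay under 1.5 times the array median in both lines.

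The same contrast at 6 h, on 4 other arrays, gave 1105 genes past the threshold (7.25%), 692 higher (4.54%) and 413 lower (2.71%). Of the 1523 genes past it at 12 h, 1458 had the same sign at 6 h and 65 the opposite sign. The 724 genes that passed at both times, 47.5% of the 12 h calls and 65.5% of the 6 h calls, all kept their direction. Both tests share 1 estimate of the spread per gene, so the calls at the 2 times are not independent. Across the 15246 genes, which are not independent replicates, the differences correlated at r = 0.726. Among the 195 genes that differed 2-fold or more at 12 h, 194 had the same sign at 6 h and 183 passed there. Their median ratio of the 12 h to the 6 h difference was 1.25. These genes were chosen for a large difference at 12 h, which by itself raises the ratio, so it does not show growth with time. HMOX1 stood at -2.35 at 6 h, BACE2 at 3.12, KLF6 at 2.21, IFI27 at 3.09 and BNIP3 at -1.43. In the interferon-stimulated list 27 of 39 were higher and 1 lower at 6 h (median 0.60), and 20 members passed at both times.

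A test of the change of the difference from 6 h to 12 h called 6 genes (0.0394%), 4 with a higher (0.0262%) and 2 with a lower difference at 12 h (0.0131%). At an unadjusted p under 0.05 the limma fit had 931 of 15246, a cutoff that a share of 0.05 of the genes is expected to pass with no change at all. PLAT went from 0.78 to 1.84, RASD1 from 0.98 to 2.06, C17orf67 from 2.53 to 3.50, and the necroptosis effector MLKL from 0.10 to 1.00. At 6 h the shNDRG3 arrays read 7.34 and 7.42 for PLAT, 7.28 and 7.16 for RASD1 and 7.35 and 7.31 for C17orf67. All lay under 1.5 times the array median, and RASD1 stayed under it at 12 h (7.21 and 7.30). These differences may be larger than measured, so the size of the change is uncertain for these genes. JSRP1 went from -0.21 to -1.25 and the glycosyltransferase GALNT16 from 0.02 to -1.09, both with a shHIF1A level under 1.5 times the array median at 12 h. PDK3 (-0.97 at 6 h and -1.76 at 12 h) and IL6 (1.56 and 2.23) did not pass this test. No more than 1 gene passed it when any 1 of the 8 arrays was left out: 1 without shHIF1A 12 h replicate 2 or shNDRG3 6 h replicate 1, and 0 without each of the other 6.

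**Figure D4:**
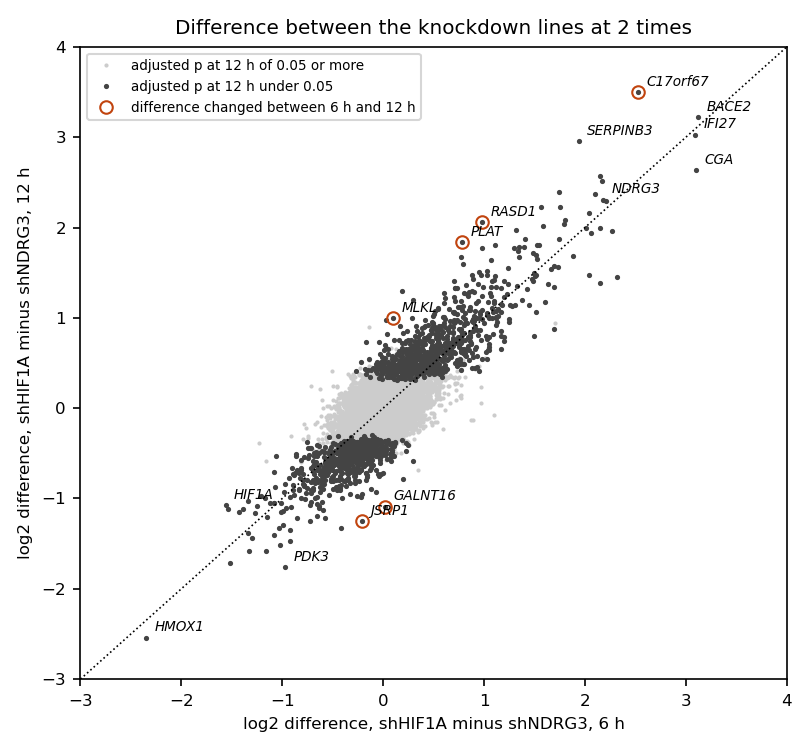
Log2 difference shHIF1A minus shNDRG3 at 6 h (horizontal axis) and at 12 h (vertical axis), 1 point per gene, dark where the adjusted p at 12 h was under 0.05, with a dotted line of equality. The axes share no array, HMOX1 lies at the lower left and BACE2 and IFI27 at the upper right, and the 6 ringed genes are those whose difference changed between the times.

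The differences from shGFP share the knockdown arrays with the comparison above, and each other's shGFP arrays, so they are given only side by side. At 12 h 3556 genes differed between shHIF1A and shGFP (23.3%) and 4189 between shNDRG3 and shGFP (27.5%), more than the 1523 between the knockdown lines. Among 2-fold differences, those lower than shGFP outnumbered the higher ones, 341 against 81 in shHIF1A (2.24% and 0.531%) and 545 against 101 in shNDRG3 (3.57% and 0.662%). The 301 hypoxia-raised genes had a median of -0.59 in shHIF1A and -0.44 in shNDRG3 relative to shGFP, with values chosen on the same shGFP arrays and therefore no test.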

How the data were processed

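Illumina bead arrays measured RNA of 24 samples of Huh-7 lines, in 11 groups of line and hours with 2 or 3 arrays each. The RNA was purified on columns and amplified with a TotalPrep kit, per the labels' protocols. As deposited, the table holds linear intensities (52.6 to 59613) of 47231 probes. How the scanner signals were corrected or scaled is not given in the sources used here. Array medians of the deposited intensities ran from 114.8 to 150.

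The deposited intensities were logged to base 2 and then quantile normalized in R 4.3.3 (limma 3.58.1, statmod 1.5.0). Probes above the array median on 2 or more arrays were kept, 31100 in all. In the platform annotation 30113 probes had 1 symbol, 8 had several and 17110 were not listed, and 10080 kept probes were unnamed. Entrez identifiers of 30074 probes matched RefSeq, and 0 symbols were updated. A gene's kept probe with the highest mean stood for it, giving 15246 genes, 4306 of them with several kept probes. Group means were fitted to all 24 arrays with lmFit and eBayes (13 residual and 9.74 prior degrees of freedom). Tests were two-sided, with Benjamini-Hochberg adjustment within each contrast and a threshold of 0.05. The fit was tested on simulated data.

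The members, 27 gene lists, motifs and alternatives were chosen with earlier results of these data known. Named genes were HIF1A, NDRG3, NDRG1 and VEGFA; the 12 highest and 12 lowest differences without overlap between groups (LOC, open reading frame and similar symbols left out); from each list up to 4 members past the threshold with the smallest p, or up to 2 where few passed; the 4 highest and 4 lowest differences among hypoxia-raised genes; and the 4 highest and 4 lowest changes between the times. Other list members, and the symbol families, were named after their values were seen. The limit for dim genes, 1.5 times the array median, was set with the data known as well. Promoters of 11849 tested genes came from a RefSeq table on GRCh38.p14, matched by symbol. The array files name no genome build, so coordinates are given only for the promoter windows of that table. The arrays at 3 h and 24 h served only to estimate the spread. Alternatives were other scalings, background correction (normexp with an offset of 50), filters, probe rules, subsets of arrays, array weights, a trended robust prior, a replicate block and leaving out each array. Replicate numbers come from the titles. Deviations of same-numbered arrays correlated at 0.0148, -0.0638, -0.0178 and -0.0345, so no shared deviation by number was seen. The fit reported here did not pair them. Such correlations cannot exclude that same-numbered samples were handled together.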

Additional observations from a re-analysis of the deposited data

Results flagged for a closer look

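Of the 15246 genes, 6 had a shHIF1A minus shNDRG3 difference that changed between 6 h and 12 h by a test of that change itself, with limma over all genes. The change on the log2 scale was 1.08 for RASD1, 1.06 for PLAT, 0.97 for C17orf67 and 0.90 for MLKL, and -1.11 for GALNT16 and -1.04 for JSRP1. RASD1, PLAT and C17orf67 lay under 1.5 times the array median in shNDRG3 at 6 h. A further GALNT16 probe gave a 12 h difference of -0.02 (adjusted p = 0.965 over all kept probes).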

How the results depend on the processing

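With 15 other settings, 70 of the 90 named genes past the threshold at 12 h kept call and direction in each; the other 20 lost the call in 1 to 6 settings, and none of these 20 except FGG changed sign. FGG gave -0.24 without the filter on dim probes, where another probe stood for it, and NDRG1, past no threshold, gave -0.11 to 0.06 when a 12 h array was left out. With intensities as deposited the counts were 591 at 6 h and 0 for the change, and the median of hypoxia-raised genes was 0.01. Median-centred arrays gave 678, 2 and 0.01, and background correction gave 1 for the change. Fits on only the arrays compared called 2306 genes at 6 h and 51 for the change, a fit on only the 12 h arrays 2482 at 12 h, and array weights 2427, 2504 and 71 at 12 h, at 6 h and for the change; the cause was not tested. Leaving out 1 array gave 813 to 1010 genes at 12 h, 509 to 616 at 6 h, 0 to 1 for the change and a hypoxia-raised median of -0.10 to -0.02; each omission leaves a group with 1 array. The replicate block within each hour gave 1506 genes at 12 h (1404 shared), 1043 at 6 h and 8 for the change; it took the call of XBP1 (adjusted p = 0.0617) and of no other named gene. The shift of the median of all genes at 12 h was 0.05 as deposited and 0.04 median-centred. Of 33 named calls with another kept probe, 17 were shared by one, 16 were not and 0 were opposed past the threshold. Without detection p-values, differences of genes near the array median cannot be read as present or absent.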

Other observations

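Gene families were also taken by symbol, after their values were seen. They share members with the lists, so some calls given above, such as those of IL6, IL1A, IL1B and ITGA5, are counted again. Over all 15246 genes 5.45% were higher and 4.54% lower. At an unadjusted p under 0.05 in the limma fit 1631 were higher and 1551 lower. Of 24 measured integrin genes, the receptors for extracellular matrix, 7 were higher in shHIF1A at 12 h and 0 lower (11 and 1 at an unadjusted p under 0.05 in the limma fit), with a median of 0.10. ITGA2, a collagen receptor chain, read 11.20 and 11.39 in shHIF1A, 9.27 and 9.28 in shNDRG3 and 12.80 and 13.04 in shGFP (2.02 ± 0.14, 4.06-fold). ITGB4, a chain of the hemidesmosome, read 11.20 and 10.89, 9.27 and 9.20, and 11.82 and 11.92 (1.81 ± 0.14, 3.51-fold). For both, shNDRG3 was the lowest line and shHIF1A lay between it and shGFP. ITGA3 (1.43 ± 0.14) and ITGB5 (1.17) were also higher. The integrin counts were 7 and 0 with intensities as deposited and 6 and 0 with median-centred arrays.

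Of 58 interleukin and interleukin receptor genes 13 were higher and 0 lower (18 and 0 at an unadjusted p under 0.05 in the limma fit), among them the receptor chains IL4R (1.87), IL13RA1 (1.24), IL7R (1.08) and IL6ST (0.91). Semaphorins and plexins, guidance signals and their receptors, had 5 of 23 higher and 0 lower (9 and 1 unadjusted in the limma fit). SEMA4B read 12.51 and 12.34 in shHIF1A, 10.56 and 10.67 in shNDRG3 and 12.46 and 12.71 in shGFP (1.81 ± 0.14, 3.51-fold), so shHIF1A overlapped the control. The protocadherin PCDH7 read 12.12 and 12.13, 9.95 and 9.97, and 13.00 and 12.90 (2.16 ± 0.19, 4.46-fold). Serpins had 6 of 19 higher and 1 lower, with the inhibitor SERPINE2 at 1.69 ± 0.13 (at least 3.23-fold). Nuclear-encoded mitochondrial ribosomal proteins had 5 of 80 lower, against 4.54% of all genes, and 0 higher (19 and 0 unadjusted in the limma fit), a median of -0.15, and 1 of 80 lower with intensities as deposited. Of 395 zinc finger genes named ZNF, 8 were higher and 6 lower, smaller shares than the 5.45% and 4.54% of all genes, with a median of 0.01.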
